A study of Mus musculus with 40 samples.

Results

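Collagen genes were followed across 8 groups of libraries from a fast muscle of the mouse leg, the extensor digitorum longus (EDL). Members were the genes named Col, a number, a and a number that reached 1 CPM (counts scaled by the library total) in 5 or more of the 40 mRNA libraries. There were 34 such genes among 42 with a name of this form, out of 13543 genes tested and 22844 in the table. The other 8 (Col4a6, Col6a4, Col6a5, Col9a2, Col9a3, Col10a1, Col17a1 and Col20a1) reached 1 CPM in 2 libraries or fewer. The 34 genes comprised 11 fibrillar, 7 basement membrane, 4 collagen VI, 5 FACIT (fibril-associated) and 2 synapse-linked genes and 5 of other types.

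TSCmKO mice lacked Tsc1 in skeletal muscle fibers by a constitutive, fiber-specific knockout, so that the kinase complex mTORC1, which Tsc1 restrains, stayed active there. Control littermates (CON) carried floxed Tsc1 alleles (genotype Tsc1fl/fl, strain Tsc1tm1Djk/J) but no Cre recombinase. Both genotypes were studied at 3 and 9 months of age (3m, 9m), with vehicle or rapamycin (+RM), which inhibits mTORC1, injected into the peritoneum over 3 days before the muscle was taken. The groups were therefore 3mCON, 3mCON+RM, 3mTSCmKO, 3mTSCmKO+RM, 9mCON, 9mCON+RM, 9mTSCmKO and 9mTSCmKO+RM, with 5 libraries each. The labels give 4 mg per kg of rapamycin, whereas a larger daily amount is named elsewhere in the study, so the amount given is uncertain. Rapamycin reached the whole animal, while Tsc1 was deleted in muscle fibers only. The lysates held whole muscle with all its cell types, including the fibroblasts that make most collagen, and in such bulk samples fewer cells of a type and less RNA per cell cannot be told apart.

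Total counts ran from 8883870 to 35224669 per library. Tsc1 was at 17.8 to 35.8 CPM in TSCmKO and at 51.3 to 134 CPM in CON libraries. All 6 skeletal muscle fiber markers examined were expressed in each library, with a sum of 80150.5 CPM or more. Library insert sizes ranged from 175 to 239 nt in 3-month libraries and from 223 to 308 nt in 9-month libraries, so that age and insert size moved together, and what is given for age cannot be told apart from it in full. The labels number the 5 replicates of a group without naming the animal, so that p-values measure the spread between these samples. That spread was at least 10.55 times the variance of counting in every pair of replicates.

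Collagens are triple helices of 3 alpha chains that build most of the extracellular matrix. Fibrillar collagens (types I, II, III, V, XI, XXIV and XXVII) assemble into the fibers of tendon and of the sheaths around muscle fibers, and FACIT collagens decorate the surface of such fibrils. Type IV collagen forms the network of basement membranes, the thin sheets that wrap each muscle fiber and capillary, while types XV and XVIII sit in the adjoining zone. Collagen VI forms beaded filaments that connect the basement membrane of muscle fibers to the surrounding matrix, and its loss causes inherited muscle disease. Collagen XIII, a transmembrane collagen of the fiber, is needed to maintain the neuromuscular junction, and collagen XIX has been linked to synapses in the brain.

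Between genes, levels were compared as TPM, which is scaled by transcript length. Col1a2 and Col1a1, the chains of collagen I, had means over the 40 libraries of 149 TPM and 77.1 TPM, and Col3a1, the chain of collagen III, had 123 TPM. These 3 genes held 26.04 to 70.8% of the summed collagen TPM of a library. The fourth fibrillar gene, Col5a2, a chain of the fibril-nucleating collagen V, had a mean of 11.4 TPM. Of the basement membrane genes, Col4a1 and Col4a2, which form the common type IV network, had means of 52.5 TPM and 34.002 TPM, Col15a1 of 15.7 TPM and Col18a1, the source of endostatin, of 4.43 TPM. Collagen VI chains were even by TPM only, with 27.1 TPM for Col6a1, 21.8 TPM for Col6a2 and 21.6 TPM for Col6a3. In CPM, which is not scaled by length, their 9mCON means were 62.8, 56.8 and 20.8 CPM. Col3a1 was above Col1a1 by TPM in 3mTSCmKO+RM (256 and 193 TPM) but below it by CPM (377 and 559 CPM). TPM depends on the transcripts among which reads were divided, so the order of genes is approximate. The synapse-linked genes were near the limit of detection, with 0.602 TPM for Col13a1 and 0.372 TPM for Col19a1. They reached 1 CPM in 19 and 15 of the 40 libraries, respectively.

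Libraries of 3mCON had a summed TPM of the 34 genes of 628 to 1420.3, and those of 3mCON+RM of 387 to 1003. For 3mTSCmKO this sum was 492 to 800.4, and for 3mTSCmKO+RM 646 to 1465. The older controls had 313 to 961 (9mCON) and, after rapamycin, 121 to 369 (9mCON+RM), and the older knockouts 162 to 464 (9mTSCmKO) and 169.8 to 299.9 (9mTSCmKO+RM). Ranges of 9mCON overlapped those of the other 9-month vehicle group and of 9mCON+RM, while 9mTSCmKO+RM lay below 9mCON throughout. The make-up of this sum by class was as follows. Fibrillar genes held 54.4 to 63.8% of it in 9mCON, 44.5 to 63.1% in 9mTSCmKO and 39.01 to 57.2% in 9mCON+RM, and 67.6 to 75.7% in 3mTSCmKO+RM. Basement membrane genes held 18.9 to 25.6% in 9mCON, 16.2 to 32.98% in 9mTSCmKO, 24.4 to 40.7% in 9mCON+RM and 10.4 to 16.9% in 3mTSCmKO+RM. Collagen VI genes held 13.3 to 14.6% in 9mCON, 10.1 to 15.1% in 9mTSCmKO and 8.67 to 16.2% in 9mCON+RM. The fibrillar and basement membrane ranges of 9mTSCmKO and 9mCON overlapped, and replicate 5 of 9mCON+RM set the lowest fibrillar and collagen VI and the highest basement membrane share of its group, the other 4 libraries having a fibrillar share of 44.9% or more. The synapse-linked genes held 0.101 to 0.204% in 9mCON and 0.247 to 1.15% in 9mCON+RM. In 9mCON+RM the mean was 0.511% with an SD of 0.368%, and replicate 5, with a summed TPM of 121, set the upper end. Such shares are relative, so that a higher share of one class goes with a lower share of another, and they were not tested.

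**Figure D1:**
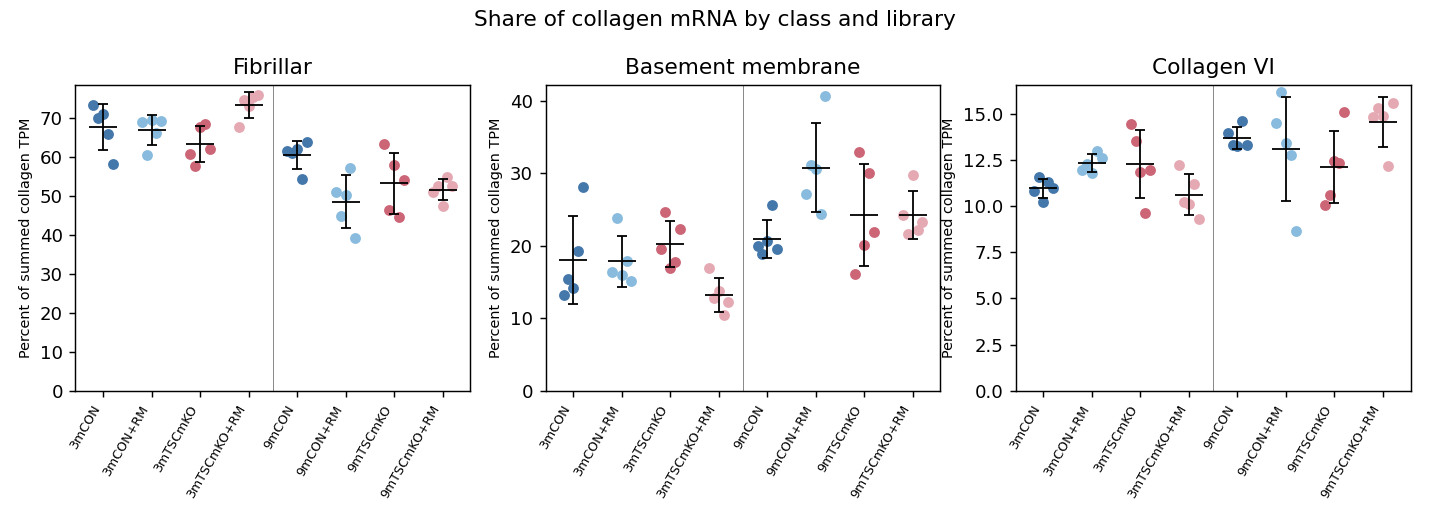
Share of the summed TPM of 34 collagen genes held by fibrillar (left), basement membrane (middle) and collagen VI genes (right), in percent on axes from 0. Each point is 1 of 5 libraries in each of 8 groups, and bars give the mean and SD. The fibrillar share ran from 39.01 to 57.2% in 9mCON+RM and from 67.6 to 75.7% in 3mTSCmKO+RM.

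The first comparison asked how sustained mTORC1 activity in muscle fibers goes with collagen mRNA at 9 months. Collagen genes were mostly lower in 9mTSCmKO than in 9mCON. Of the 34 genes, 19 fell and 1 rose by edgeR's quasi-likelihood test (adjusted p under 0.05), that is 55.9% lower and 2.94% higher, against 18.9% and 19.1% of all 13543 genes. The median log2 fold change was -0.91, against -0.02 over all genes. All 4 collagen VI genes, 5 of 7 basement membrane genes, 7 of 11 fibrillar genes, 2 of 5 FACIT genes and 1 of 2 synapse-linked genes fell.

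Among the fibrillar genes, Col3a1 (chr1:45311538-45349706, plus strand) was at 174, 136, 177, 131 and 302 CPM (TMM-scaled) in the 9mCON libraries and at 115, 50.2, 85.96, 28.2 and 73.8 CPM in the 9mTSCmKO libraries. The groups did not overlap (log2 fold change -1.38, SE 0.34, adjusted p = 0.00147). Col1a2 (chr6:4504814-4541544, plus strand) was at 404, 227, 293, 216 and 527 CPM in 9mCON and at 308, 121, 149.5, 53.4 and 131 CPM in 9mTSCmKO. Only replicate 1 of 9mTSCmKO reached the range of 9mCON (log2 fold change -1.13, SE 0.38, adjusted p = 0.0181). Col1a1 (chr11:94936224-94953042, plus strand) likewise overlapped through that library, at 217, 53.8, 58.8, 25.3 and 58.3 CPM against 189, 87.5, 199, 116 and 318 CPM in 9mCON (log2 fold change -1.14, SE 0.45, adjusted p = 0.0425). Col5a2 (chr1:45374321-45503282, minus strand), the neighbor of Col3a1 on chromosome 1, fell from 31.7 ± 10.3 to 18.9 ± 6.501 CPM (SD, n = 5; -0.75, adjusted p = 0.0125). The smallest adjusted p of a collagen gene was that of Col11a2 (chr17:34039437-34066685, plus strand), a chain of the minor fibrillar collagen XI. It stood at 22.4, 17.1, 16.1, 8.297 and 16.5 CPM in 9mCON and at 6.71, 4.71, 6.37, 1.85 and 3.24 CPM in 9mTSCmKO, with no overlap (log2 fold change -1.81, SE 0.27, adjusted p = 1.04e-06).

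Of the basement membrane genes, Col4a1 (chr8:11198423-11312826, minus strand) was at 169, 116, 154, 151 and 233 CPM in 9mCON and at 126, 131, 90.03, 66.6 and 82.8 CPM in 9mTSCmKO. The ranges overlapped through replicates 1 and 2 of 9mTSCmKO (log2 fold change -0.73, SE 0.24, adjusted p = 0.014). Col4a2 (chr8:11312805-11449287, plus strand), which starts head to head with Col4a1, fell from 109 ± 38.3 to 62.6 ± 16.4 CPM (-0.81, adjusted p = 0.00927). Col15a1 (chr4:47208161-47313167, plus strand), whose product anchors the fiber's basement membrane to the fibrils around it, was at 39.6, 23.8, 24.1, 30.3 and 54.9 CPM in 9mCON and at 9.78, 14.4, 16.4, 8.48 and 16.6 CPM in 9mTSCmKO. Those groups did not overlap (log2 fold change -1.40, SE 0.27, adjusted p = 8.75e-05). Col18a1 (chr10:77052178-77166548, minus strand) did not pass, at 6.34 to 14.6 CPM in 9mCON and 2.42 to 14.4 CPM in 9mTSCmKO (-0.49, adjusted p = 0.183).

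Col4a3 and Col4a4 encode chains of the type IV network found in kidney and, in muscle, at the synaptic basement membrane. Col4a4 (chr1:82448423-82586849, minus strand) was at 6.38, 3.09, 4.39, 5.35 and 6.51 CPM in 9mCON and at 0.728, 2.53, 0.949, 1.33 and 2.01 CPM in 9mTSCmKO. No 9mTSCmKO library reached the 9mCON range (log2 fold change -1.77, SE 0.28, adjusted p = 3.41e-06). Col4a3 (chr1:82586921-82722059, plus strand) fell from 5.65 ± 2.04 to 2.83 ± 1.41 CPM with overlap (-1.01, adjusted p = 0.00585). Their partner chain, Col4a5 (chrX:141475385-141689234, plus strand), was at 2.11 to 3.19 CPM in 9mCON and 1.18 to 2.59 CPM in 9mTSCmKO and did not pass (-0.42, adjusted p = 0.251). Col4a4 and Col4a3 lie head to head, so the stretch between their annotated first exons is shown, in lower case and as read on the minus strand of GRCm38.p6 (RefSeq), 71 bases at chr1:82586850-82586920.
Col4a4-Col4a3: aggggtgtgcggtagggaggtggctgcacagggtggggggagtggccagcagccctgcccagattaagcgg
It held neither CCAAT nor GGGCGG nor TATAAA on either strand, which says only that these letters are not in this window.

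Collagen VI genes fell together. Col6a1 (chr10:76708792-76726168, minus strand) was at 69.4, 39.3, 61.5, 46.5 and 97.2 CPM in 9mCON and at 38.1, 22.5, 28.2, 15.2 and 29.004 CPM in 9mTSCmKO, and the groups did not overlap (-1.24, adjusted p = 0.000399). Col6a2 (chr10:76595762-76623630, minus strand), its neighbor, was at 57.4, 40.8, 47.1, 43.6 and 95.2 CPM and 22.8, 21.2, 26.6, 12.9 and 26.7 CPM, also without overlap (-1.37, adjusted p = 0.00041). Col6a3 (chr1:90765923-90843971, minus strand) was at 18.8, 11.1, 14.5, 18.1 and 41.4 CPM and 11.8, 8.71, 6.42, 5.19 and 10.4 CPM, where the lowest 9mCON library lay within the 9mTSCmKO range (-1.29, adjusted p = 0.00191). Of the FACIT genes, Col9a1 (chr1:24177610-24252684, plus strand), a chain of the cartilage collagen IX, fell from 4.901, 4.91, 3.17, 4.75 and 3.93 CPM to 0.312, 1.47, 1.06, 0.635 and 2.62 CPM, again without overlap (-1.80, adjusted p = 7.41e-05). Col14a1 (chr15:55307750-55520803, plus strand), a collagen of tendon and muscle sheaths, fell from 6.78 ± 3.08 to 2.704 ± 2.19 CPM (-1.33, adjusted p = 0.00625).

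The 1 gene that rose by edgeR, Col22a1 (chr15:71795795-72034227, minus strand), known from the myotendinous junction where fibers attach to tendon, was singled out after its values were seen. It was at 0.6496, 1.13, 1.14, 1.91 and 0.981 CPM in 9mCON and at 2.81, 3.77, 2.18, 2.42 and 1.31 CPM in 9mTSCmKO, with overlap (log2 fold change 1.09, SE 0.31, adjusted p = 0.0059). Its counts were low, 11 to 35 in 9mCON and 30 to 64 in 9mTSCmKO.

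The remaining members are described after their values were seen. Col6a6 (chr9:105687809-105828160, minus strand), a further collagen VI chain, had the largest log2 fold change of the 34 genes. It was at 1.48, 0.528, 0.812, 1.201 and 3.51 CPM in 9mCON and at 0, 0.294, 0.223, 0.289 and 0.394 CPM in 9mTSCmKO, without overlap (log2 fold change -2.64, SE 0.61, adjusted p = 0.000659), on counts of 7 to 68 and of 0 to 9. Col5a1, the chain shared by most collagen V trimers, fell from 30.4 ± 12.6 to 13.4 ± 6.51 CPM (-1.19, adjusted p = 0.0029) and in 9mCON+RM to 12.9 ± 6.39 CPM (-1.24, adjusted p = 0.00779). Col16a1, a FACIT, stood at 4.44 ± 2.15 CPM in 9mCON and 2.79 ± 2.03 CPM in 9mTSCmKO (-0.68, adjusted p = 0.141), and fell in 9mCON+RM to 1.62 ± 0.609 CPM (-1.46, adjusted p = 0.0111). Col8a2, a short-chain collagen of the cornea, stood at 1.44 ± 1.21 and 0.559 ± 0.628 CPM (-1.39, adjusted p = 0.0611) and fell in 9mCON+RM to 0.353 ± 0.414 CPM (-2.09, adjusted p = 0.0327). Col12a1, a FACIT of tendon, passed in neither comparison (-1.55, adjusted p = 0.0745 and -1.27, adjusted p = 0.271). It was called lower in 9mTSCmKO without 9mCON replicate 3 or 9mTSCmKO replicate 2. Col27a1 (-0.32, adjusted p = 0.404), Col26a1 (0.46, adjusted p = 0.27), Col28a1 (-0.45, adjusted p = 0.424), Col8a1 (0.26, adjusted p = 0.434) and Col2a1 (0.29, adjusted p = 0.678) did not pass by edgeR between genotypes at 9 months, nor with rapamycin in 9mCON (adjusted p = 0.068 to 0.644). DESeq2 called Col2a1 and Col8a1 lower in 9mCON+RM, and called Col8a2 lower and Col7a1 higher in 9mTSCmKO (edgeR, Col7a1: 0.69, adjusted p = 0.0649). By edgeR, Col7a1 was called higher there without 9mCON replicate 2 or 9mTSCmKO replicates 2 or 4. Col8a2 was called lower there by edgeR without 9mCON replicates 2, 3 or 4.

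Single libraries weighed on these counts. Without 9mTSCmKO replicate 1, 25 collagen genes fell, with Col8a2, Col11a1, Col16a1, Col18a1, Col27a1 and Col28a1 in addition. Without 9mCON replicate 5, which had the highest Col1a2, Col3a1, Col6a1 and Col15a1 values of its group, 11 collagen genes fell and 1 rose, and Col1a1, Col1a2, Col4a1, Col4a2, Col5a2, Col5a3, Col14a1 and Col19a1 lost their calls (adjusted p = 0.0519 to 0.213). Calls of Col1a1, Col1a2, Col5a3 and Col19a1 were also lost without 1 or more of 9mCON replicates 1 and 3 and 9mTSCmKO replicates 2, 3, 4 and 5 (adjusted p to 0.11). Fitting both groups alone lost Col1a1, Col19a1 and Col4a3 (adjusted p = 0.0647 to 0.135), limma lost Col5a2, Col19a1 and Col4a3 (adjusted p = 0.0505 to 0.0824), and without the low-count filter Col1a1 was lost (adjusted p = 0.0615).

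**Figure D2:**
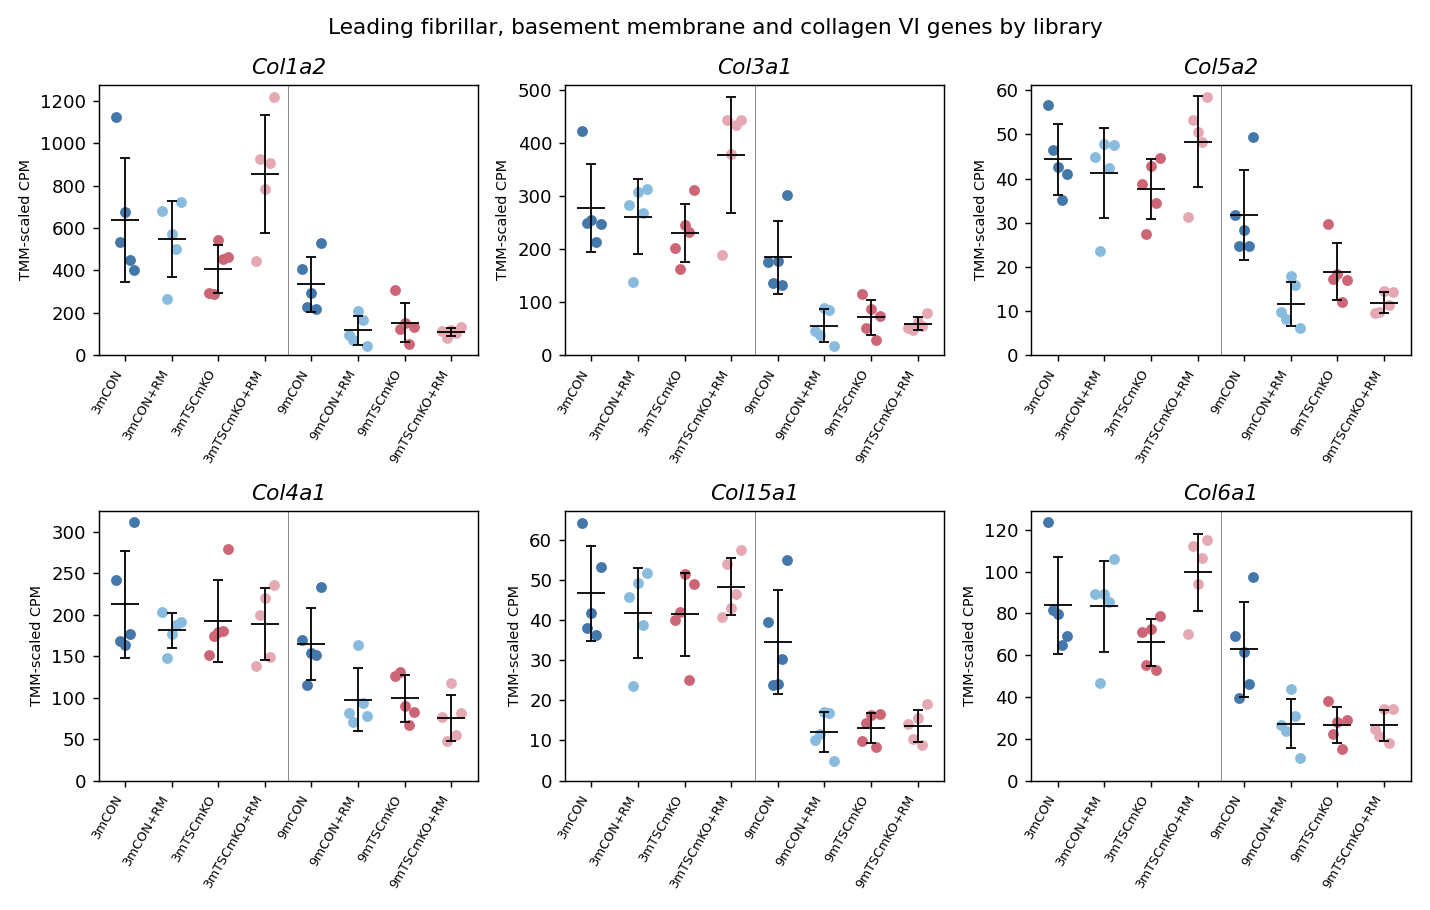
TMM-scaled CPM of 6 leading collagen genes, on axes from 0. Each point is 1 of 5 libraries in each of 8 groups, and bars give the mean and SD, with 3-month groups left and 9-month groups right of the line. Col3a1 ran from 131 to 302 CPM in 9mCON, against 28.2 to 115 CPM in 9mTSCmKO and 16.9 to 88.8 CPM in 9mCON+RM.

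Rapamycin in 9-month control muscle was examined next. Here too collagen genes were lower. In 9mCON+RM against 9mCON, 19 of 34 genes fell (55.9%, against 6.82% of all genes) and none rose (against 5.03%), where edgeR passed 26 of 34 in either direction at an unadjusted p under 0.05 and DESeq2 also called none higher. The median log2 fold change was -1.18, against -0.02 over all genes. By class, 8 of 11 fibrillar, 4 of 7 basement membrane, 3 of 4 collagen VI, 3 of 5 FACIT and 1 of 5 other genes fell. Neither gene of the synapse-linked class, Col13a1 and Col19a1, passed. Col4a4, counted as a basement membrane gene but also found at the synaptic one, fell from 5.14 ± 1.43 to 2.78 ± 0.99 CPM (edgeR, adjusted p = 0.0221). Its neighbor Col4a3 had no call. This comparison shares the 9mCON libraries with the one between genotypes.

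The class median was -1.47 for fibrillar and -0.76 for basement membrane genes, a difference between classes that was not tested. Col3a1 was at 45.2, 37.6, 88.8, 85.2 and 16.9 CPM in 9mCON+RM, below each 9mCON library (log2 fold change -1.75, SE 0.34, adjusted p = 0.000796). Col1a2, at 93.01, 68.1, 206, 166 and 43.6 CPM, did not overlap 9mCON either (log2 fold change -1.53, SE 0.38, adjusted p = 0.00697). Col1a1 was at 36.003, 30.95, 73.6, 71.3 and 13.8 CPM and again lay below 9mCON (log2 fold change -2.02, SE 0.46, adjusted p = 0.00356). Col5a2 was at 9.73, 8.12, 17.9, 15.9 and 6.14 CPM in 9mCON+RM and had the smallest adjusted p of the collagen genes here (log2 fold change -1.47, SE 0.25, adjusted p = 0.000144). Col14a1 had the largest change that passed and was at 1.42, 1.54, 1.23, 1.55 and 0.26998 CPM, below each 9mCON library (log2 fold change -2.50, SE 0.43, adjusted p = 0.000203). Col9a1 was at 0.5404, 1.34, 1.52, 1.203 and 1.08 CPM in 9mCON+RM, also without overlap (log2 fold change -1.93, SE 0.36, adjusted p = 0.000399).

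Of the basement membrane genes, Col15a1 was at 10.2, 11.7, 17.003, 16.8 and 4.79 CPM in 9mCON+RM, below each 9mCON library (log2 fold change -1.52, SE 0.27, adjusted p = 0.000318). Col4a1 was at 81.6, 70.6, 163, 93.8 and 78.4 CPM and overlapped 9mCON through replicate 3 (log2 fold change -0.76, SE 0.24, adjusted p = 0.0311). Col4a2 did not pass (-0.54, adjusted p = 0.159), but was called lower without 9mCON+RM replicate 3. Col18a1 fell from 10.3 ± 3.15 to 5.05 ± 1.52 CPM (-1.05, adjusted p = 0.0171). Collagen VI genes fell as well, with Col6a1 at 26.7, 23.96, 43.6, 31.1 and 10.9 CPM (-1.21, adjusted p = 0.00275), while its highest library, replicate 3, exceeded the lowest of 9mCON. The values of Col6a2 were 19.05, 18.8, 33.2, 27.5 and 6.01 CPM, below each 9mCON library (-1.45, adjusted p = 0.00133), and Col6a3 fell to 7.43 ± 2.99 CPM (-1.49, adjusted p = 0.00265).

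Leaving out 1 library kept at least 13 of these calls. Without 9mCON replicate 5, Col4a1, Col4a4, Col8a2, Col11a1, Col16a1 and Col18a1 lost theirs (adjusted p = 0.0524 to 0.159), and Col4a1 and Col8a2 lost their calls without 6 of the 10 libraries, Col4a4 without 5, Col18a1 without 3 and Col11a1 without 2. Beyond 9mCON replicate 5, these were 9mCON replicate 1 and 9mCON+RM replicates 1, 2, 4 and 5 for Col4a1 and Col8a2, the same without 9mCON+RM replicate 4 for Col4a4, 9mCON+RM replicates 2 and 5 for Col18a1 and 9mCON+RM replicate 5 for Col11a1. Fitting both groups alone left 14 genes lower and lost Col4a1, Col4a4, Col5a1, Col6a1 and Col8a2 (adjusted p = 0.0529 to 0.109). Col8a2, Col11a1 and Col16a1 were lost with limma (adjusted p = 0.0603 to 0.187), and Col4a1 and Col8a2 without the low-count filter (adjusted p = 0.0604 to 0.0624).

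Some lists of cell type markers were lower in the same 9-month groups as these collagen genes, and others were not. All 8 fibroblast markers examined (Pdgfra, Dcn, Dpt, Lum, Pi16, Ly6a, Gsn and Cd34) were detected in every library. Whether each of them marks fibroblasts alone in whole muscle was not tested. Their sum was 1013 to 1845 CPM in 9mCON, 378 to 861 CPM in 9mTSCmKO, 209.9 to 806 CPM in 9mCON+RM and 462 to 884 CPM in 9mTSCmKO+RM, so that 9mCON lay above the other 9-month groups. At 3 months the sum was 1089.7 to 1999 CPM in 3mCON, 1037 to 2334 CPM in 3mCON+RM, 977 to 1581 CPM in 3mTSCmKO and 1304 to 2036 CPM in 3mTSCmKO+RM. Of the 8 markers, 6 fell in 9mTSCmKO (against 18.9% of all genes) and 7 in 9mCON+RM (against 6.82% of all genes), relative to 9mCON. In 9mTSCmKO the smallest adjusted p belonged to Cd34 -1.11, adjusted p = 6.35e-06 and Dpt -1.42, adjusted p = 9.85e-06 on the log2 scale.

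Tendon cell markers were lower as well. The sum of 8 (Tnmd, Scx, Mkx, Fmod, Chad, Comp, Thbs4 and Kera, of which Kera and Comp each had 1 library at 0 counts) was 92.96 to 537 CPM in 9mCON, 61.1 to 137 CPM in 9mTSCmKO, 33.01 to 74.2 CPM in 9mCON+RM and 34.8 to 85.5 CPM in 9mTSCmKO+RM. Its spread in 9mCON was wide (206 ± 187 CPM, SD), and the range of 9mTSCmKO (102 ± 31.4 CPM) overlapped that of 9mCON. In the 3-month groups this sum was 141 to 847, 95.7 to 706, 177 to 478 and 320.1 to 613 CPM, in the order 3mCON, 3mCON+RM, 3mTSCmKO and 3mTSCmKO+RM. Of these markers, 5 fell in 9mTSCmKO (Kera -2.17, adjusted p = 0.00274 and Fmod -2.27, adjusted p = 0.00323) and 7 in 9mCON+RM. Macrophage markers (5, none at 0) were at 27.3 to 94.9 CPM in 9mCON and at 7.36 to 22.6 CPM in 9mCON+RM, where 4 of 5 fell, and at 25.01 to 43.96 CPM in 9mTSCmKO, where Cd163 fell (-1.07, adjusted p = 0.0383) and Cd68 rose (1.80, adjusted p = 0.000928). Of the other lists, 4 of 5 pericyte and smooth muscle (Kcnj8 -0.67, adjusted p = 0.000761 and Rgs5 -0.67, adjusted p = 0.000945), 2 of 5 endothelial (Tie1 -0.47, adjusted p = 0.0101 and Pecam1 -0.40, adjusted p = 0.0459), 2 of 6 Schwann (S100b -0.83, adjusted p = 0.0244 and Sox10 -0.74, adjusted p = 0.0463), 1 of 4 adipocyte (Adipoq -1.84, adjusted p = 0.0425 and Cidec -1.49, adjusted p = 0.0989) and 4 of 6 muscle fiber markers (Ckm -0.83, adjusted p = 2.01e-05 and Myh4 -1.03, adjusted p = 0.000196) fell in 9mTSCmKO, where the brackets give the log2 fold changes of the 2 genes with the smallest adjusted p. Satellite cell markers gave no call there by edgeR (0 of 3 at an unadjusted p under 0.05; Pax7 -0.29, adjusted p = 0.399 and Calcr 0.41, adjusted p = 0.491). In 9mCON+RM, 1 of 6 Schwann markers fell and 1 of 6 muscle fiber markers rose (4 of 6 at an unadjusted p under 0.05), while the pericyte, endothelial, adipocyte and satellite cell lists gave no call by edgeR (0 genes at an unadjusted p under 0.05). The summed muscle fiber markers were at 123165 to 140793 CPM in 9mCON, 160549 to 168983 CPM in 9mCON+RM and 80150.5 to 98363 CPM in 9mTSCmKO, and these 3 groups did not overlap. Of all genes, 18.9% fell and 19.1% rose in 9mTSCmKO against 9mCON, and 6.82% fell and 5.03% rose in 9mCON+RM. Counts of 1 or 2 on lists of 4 to 6 genes, as for adipocyte, endothelial and Schwann markers in 9mTSCmKO, are near that share. The part of these cell types in the collagen values was not tested.

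**Figure D3:**
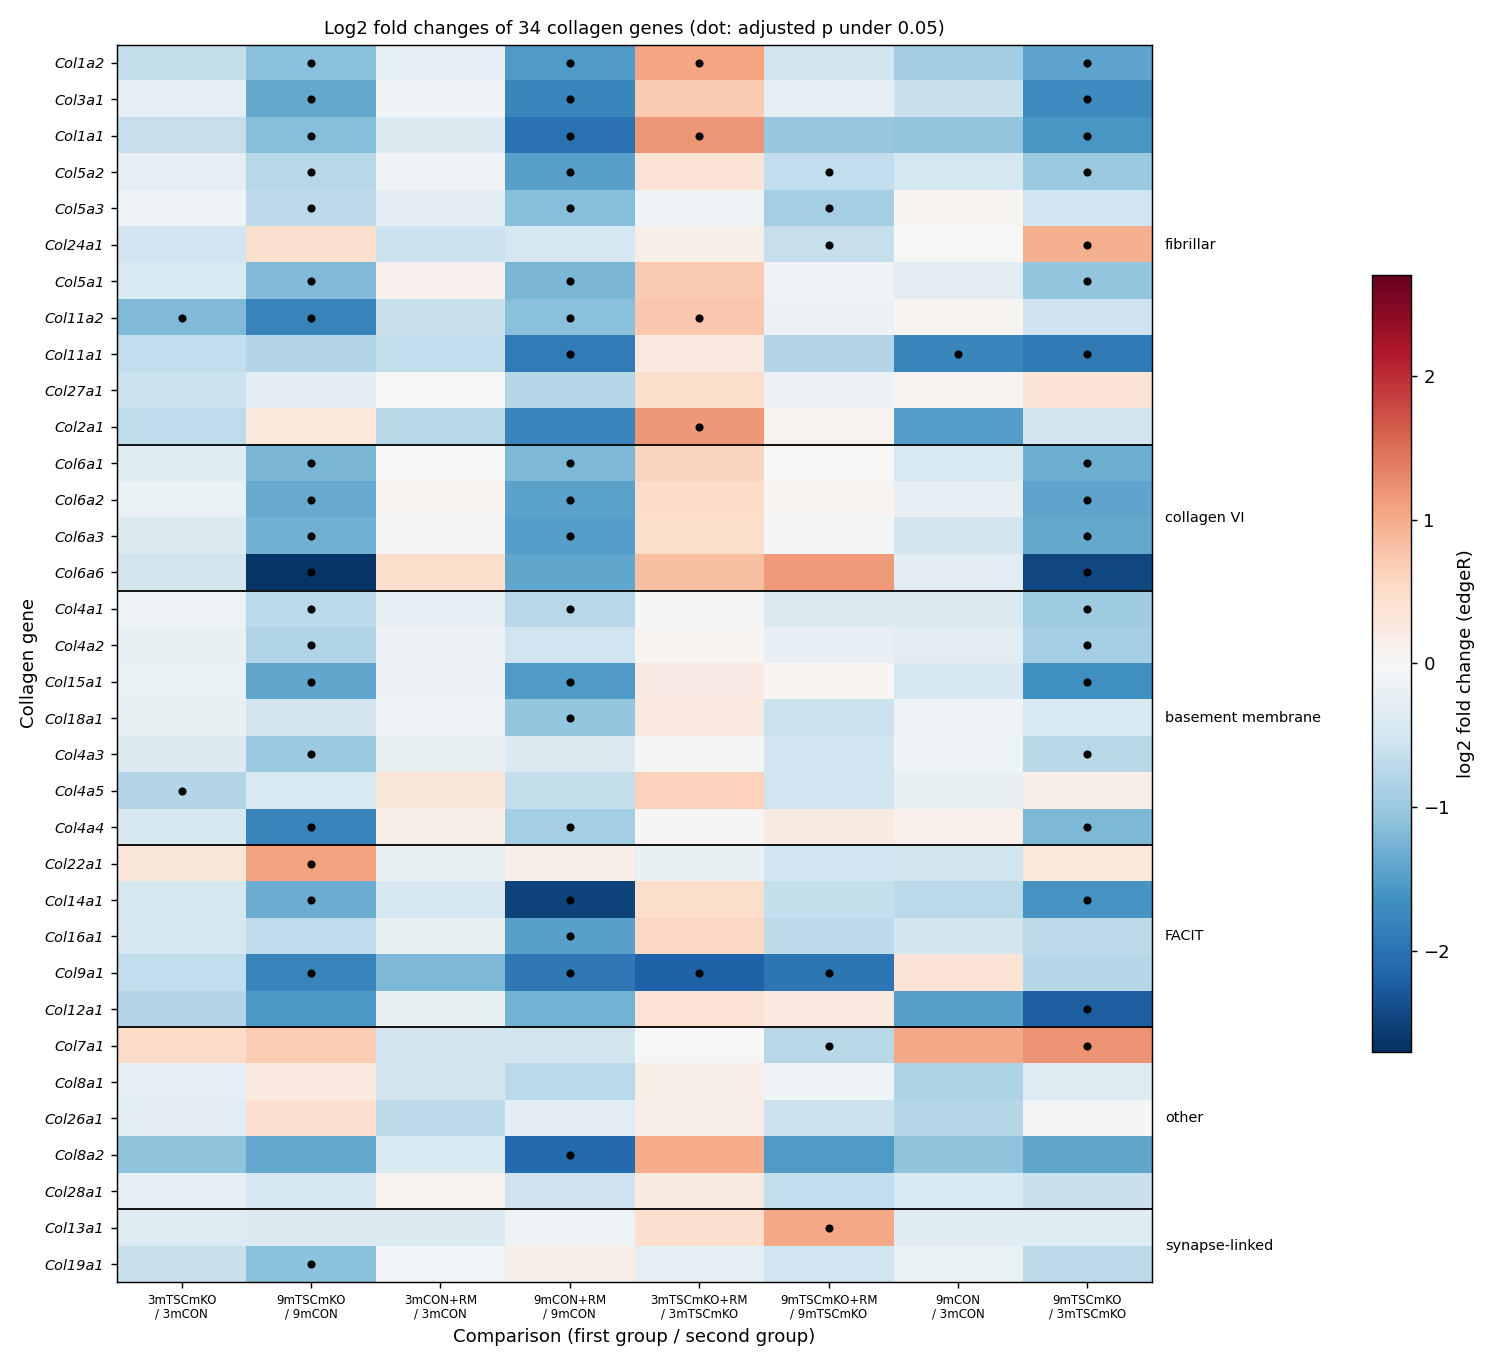
Log2 fold changes (color) of the 34 collagen genes (rows, by class) in 8 comparisons (columns, first group over second), with a dot where the adjusted p of edgeR's test was under 0.05. Mostly blue (lower) are the columns for 9mTSCmKO against 9mCON, with 19 genes lower, 9mCON+RM against 9mCON, with 19 lower, and 9mTSCmKO against 3mTSCmKO, with 17 lower, while 3mTSCmKO+RM against 3mTSCmKO has 4 higher.

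Rapamycin in 9mTSCmKO was examined in a comparison that shares the 9mTSCmKO libraries with that of the genotypes. There 5 of 34 genes fell (14.7%, against 16.8% of all genes) and 1 rose (2.94%, against 15.8%), with a median log2 fold change of -0.50 against -0.04 over all genes. None of the 7 basement membrane or 4 collagen VI genes passed in edgeR, also at an unadjusted p under 0.05 (0 and 0 genes), or in DESeq2, but Col18a1 and Col1a1 were called lower without 9mTSCmKO replicate 4. Col3a1 was at 51.02, 47.8, 61.2, 53.6 and 78.9 CPM in 9mTSCmKO+RM, within the range of 9mTSCmKO (-0.27, adjusted p = 0.565). Col15a1, at 14.2, 10.49, 15.7, 8.96 and 18.96 CPM, overlapped 9mTSCmKO as well (0.06, adjusted p = 0.896). Col9a1 fell further, to 0.156, 0.173, 0.381, 0.414 and 0.427 CPM (log2 fold change -1.96, SE 0.45, adjusted p = 0.000834). Col5a3 (chr9:20770050-20815067, minus strand), another collagen V chain, fell from 38.2, 23.6, 21.7, 16.4 and 26.1 CPM to 15.3, 13.2, 15.3, 9.37 and 13.8 CPM, without overlap (log2 fold change -0.91, SE 0.25, adjusted p = 0.00545). Col5a2 (-0.67, adjusted p = 0.0338), Col24a1 (-0.63, adjusted p = 0.0144) and Col7a1 (-0.76, adjusted p = 0.0476) fell and Col13a1 rose (1.04, adjusted p = 0.039).

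These 4 calls depended on 9mTSCmKO replicate 1, without which 2 genes passed and the 4 did not (adjusted p = 0.0868 to 0.516). Col7a1 also lost its call without 9mTSCmKO replicate 3 and each 9mTSCmKO+RM replicate and with a replicate block (adjusted p = 0.0724), Col5a2 without 9mTSCmKO+RM replicates 1, 2 and 4, and Col13a1 without 9mTSCmKO replicates 3 and 5 and 9mTSCmKO+RM replicates 1 and 3. Fitting both groups alone also lost Col7a1 and Col13a1 (adjusted p = 0.112 to 0.18), and limma lost Col7a1 and Col5a2 (adjusted p = 0.131 to 0.164). Both were also lost without the low-count filter (adjusted p = 0.0595 to 0.0918), and Col7a1 with insert size as a term (adjusted p = 0.0556). In the same comparison 4 of 6 muscle fiber markers rose, and their sum was 80150.5 to 98363 CPM in 9mTSCmKO and 126188 to 152187 CPM in 9mTSCmKO+RM, without overlap. There also rose 2 of 5 pericyte and smooth muscle and 1 of 3 satellite cell markers, and 2 of 6 Schwann, 1 of 5 endothelial and 1 of 8 tendon cell markers fell. Of all genes, 15.8% rose and 16.8% fell there. The part of these cell types was not tested.

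Whether rapamycin acted differently in the genotypes at 9 months was tested as an interaction, the log2 fold change in TSCmKO minus that in CON. Its median over the 34 genes was 0.77, against -0.001 over all genes, and 2 genes passed with the higher value in TSCmKO (5.88%, against 2.56% of all genes) and none with the lower (against 2.31%), of 13 at an unadjusted p under 0.05. They were Col15a1 (log2 difference 1.58, SE 0.39, adjusted p = 0.0122) and Col6a2 (log2 difference 1.51, SE 0.42, adjusted p = 0.0304). DESeq2 called 7 genes, none of them lower. Col6a2 lost its call without 9mCON replicate 5, 9mCON+RM replicate 1, 9mTSCmKO replicate 4 or 9mTSCmKO+RM replicates 3 or 5 (adjusted p to 0.0847), and the count rose to 7 without 9mCON replicate 2, to 6 without 9mTSCmKO replicate 1 and to 5 without 9mCON+RM replicate 3. Both genes were lost in a fit of the 4 groups alone (adjusted p = 0.0552 and 0.096), and Col6a2 without the low-count filter (adjusted p = 0.0606) and with insert size as a term (adjusted p = 0.0691). Limma added Col3a1 and Col14a1. The same interaction passed for 2 of 8 fibroblast markers, with the higher value in TSCmKO (7 at an unadjusted p under 0.05), and their part was not tested.

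Between the rapamycin groups at 9 months, few collagen genes differed. In 9mTSCmKO+RM against 9mCON+RM the median log2 fold change was -0.02, 4 genes were lower (11.8%, against 9.33% of all genes) and 2 higher (5.88%, against 11.3%). Lower were Col19a1 (-1.81, adjusted p = 0.00152), Col9a1 (-1.84, adjusted p = 0.00314), Col4a3 (-1.12, adjusted p = 0.00709) and Col11a2 (-0.84, adjusted p = 0.0262). Higher were Col2a1, the main collagen of cartilage (2.18, adjusted p = 0.0103), and Col8a1, a short-chain collagen of vessel walls (0.87, adjusted p = 0.0147), both named after their values were seen. Col2a1 rests on 0 to 4 counts in 9mCON+RM and 2 to 23 in 9mTSCmKO+RM and lost its call without 9mTSCmKO+RM replicate 3 (adjusted p = 0.0531). Col8a1 lost its call without 9mTSCmKO+RM replicate 5 (adjusted p = 0.067), and Col11a2 lost it without that library, 9mTSCmKO+RM replicates 2 and 4 or 9mCON+RM replicates 1, 3 and 4 (adjusted p to 0.067). With insert size as a term Col11a2 and Col8a1 were lost (adjusted p = 0.0555 to 0.0716), and with limma Col2a1, Col4a3, Col9a1 and Col11a2 (adjusted p = 0.0561 to 0.127). Of the markers, 2 of 5 endothelial and 1 of 6 muscle fiber markers were lower and 1 of 5 macrophage markers higher, and their part was not tested.

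At 3 months the genotype comparison gave few calls. Of the 34 genes, 2 were lower in 3mTSCmKO than in 3mCON (5.88%, against 8.32% of all genes) and none higher (against 11.4%), of 5 at an unadjusted p under 0.05, and DESeq2 called 3 lower and none higher. The median was -0.40. Col11a2 fell from 20.5, 13.4, 22.6, 10.51 and 9.46 CPM to 6.39, 5.29, 8.79, 6.53 and 6.69 CPM, without overlap (log2 fold change -1.18, SE 0.26, adjusted p = 0.000762). Col4a5 fell from 3.53, 3.28, 2.19, 2.95 and 3.04 CPM to 1.52, 0.915, 2.06, 1.66 and 2.27 CPM, where the highest 3mTSCmKO library just passed the lowest 3mCON library (log2 fold change -0.80, SE 0.28, adjusted p = 0.0394). That call was lost without any 1 of 7 libraries, 3mCON replicates 1, 2, 4 and 5 and 3mTSCmKO replicates 1, 2 and 4, which left Col11a2 (1 gene; adjusted p of Col4a5 = 0.0629 to 0.12). It was also lost without the low-count filter (adjusted p = 0.059) and with insert size as a term (adjusted p = 0.0622). Col24a1 was called lower by DESeq2, limma, upper-quartile scaling and the replicate block, and Col27a1 when both groups were fitted alone. Of the markers, 1 of 8 tendon cell and 1 of 5 pericyte and smooth muscle markers fell and 1 of 6 Schwann markers rose, and their part was not tested.

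The difference between the ages in the genotype effect was tested as an interaction, with a median over the collagen genes of -0.52 (9 months minus 3 months). It passed for 2 genes with the lower value at 9 months (5.88%, against 1.93% of all genes) and for 1 with the higher (2.94%, against 3.01%). Col4a4 (log2 difference -1.34, SE 0.38, adjusted p = 0.0328) and Col15a1 (log2 difference -1.23, SE 0.37, adjusted p = 0.0478) had the stronger decrease at 9 months. Col24a1 (chr3:145292472-145552011, plus strand), a minor fibrillar collagen known from bone, differed the other way (log2 difference 0.95, SE 0.28, adjusted p = 0.0424). None of the 3 passed without 3mCON replicate 5, 3mTSCmKO replicate 3, 9mCON replicates 4 or 5 or 9mTSCmKO replicate 1, nor when the 4 groups were fitted alone (adjusted p = 0.0712 to 0.142). Col15a1 and Col24a1 were also lost with insert size as a term (adjusted p = 0.063 to 0.105) and without the low-count filter (adjusted p = 0.0623 to 0.0703), Col15a1 and Col4a4 with limma (adjusted p = 0.113 to 0.21) and Col15a1 with upper-quartile scaling (adjusted p = 0.057). Counts without 1 library ran from 0 to 4, and Col15a1 was lost without 13, Col24a1 without 11 and Col4a4 without 9 of the 20 libraries. The call held for Col15a1 without 3mCON replicate 1, 3mTSCmKO replicate 4, 9mCON replicates 2 or 3 or 9mTSCmKO replicates 2, 3 or 5, and for Col24a1 without 3mCON replicates 3 or 4, 3mTSCmKO replicates 4 or 5, 9mCON replicates 1 or 2 or 9mTSCmKO replicates 2, 4 or 5. For Col4a4 it held without 3mCON replicates 1 or 2, 3mTSCmKO replicates 1, 2 or 4, 9mCON replicates 1, 2 or 3 or 9mTSCmKO replicates 2, 4 or 5. In the same interaction 1 of 8 fibroblast markers passed with the lower value at 9 months (4 at an unadjusted p under 0.05, median -0.65), as did 1 of 6 muscle fiber markers (6 at an unadjusted p under 0.05, median -0.47). Their part was not tested.

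Rapamycin in 3mTSCmKO gave few collagen calls, and the share that rose was near that of all genes. Of the 34 genes, 4 rose (11.8%, against 10.6% of all genes) and 1 fell (2.94%, against 13.0%), with a median log2 fold change of 0.37 against 0.01 over all genes and of 0.71 for fibrillar but 0.04 for basement membrane genes. Col1a2 rose from 293, 287, 543, 451 and 462 CPM to 444, 928, 786, 908 and 1218 CPM (log2 fold change 1.07, SE 0.38, adjusted p = 0.0357). Col1a1 rose from 161, 163, 324, 275 and 303 CPM to 293, 629, 517, 556 and 801 CPM (log2 fold change 1.19, SE 0.45, adjusted p = 0.049). Replicate 1 of 3mTSCmKO+RM was the library that overlapped in both genes. Col11a2 rose from 6.39, 5.29, 8.79, 6.53 and 6.69 CPM to 8.81, 11.6, 10.4, 10.7 and 14.6 CPM, just without overlap (log2 fold change 0.73, SE 0.26, adjusted p = 0.0346). Col2a1, named after its values were seen, rose from 0.906 ± 0.278 to 2.05 ± 0.572 CPM (1.17, adjusted p = 0.0371). The exception was Col9a1, which fell from 1.38, 2.55, 1.902, 2.21 and 2.52 CPM to 0.371, 0.168, 0.647, 0.471 and 0.712 CPM, without overlap (log2 fold change -2.19, SE 0.39, adjusted p = 4.74e-05).

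All 4 rises depended on single libraries. They were lost together without 3mTSCmKO replicate 2 or 3mTSCmKO+RM replicates 2, 4 or 5 and with insert size as a term (adjusted p = 0.0543 to 0.0799), which left 1 gene, and 3 of the 4 were lost without 3mTSCmKO replicates 1, 4 or 5. Col2a1 was lost without 3mTSCmKO replicate 3 and Col1a1 without 3mTSCmKO+RM replicate 3. Without the low-count filter Col1a1, Col1a2 and Col2a1 were lost (adjusted p = 0.0516 to 0.0895). Fitting both groups alone gave 10 genes. In the same comparison, in which 10.6% of all genes rose, 1 of 8 fibroblast and 2 of 8 tendon cell markers rose. So did 2 of 5 macrophage, 3 of 6 muscle fiber and 1 of 5 pericyte and smooth muscle markers. Their part was not tested.

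In 3mCON, rapamycin gave no collagen call in either direction by edgeR (against 0.318% of all genes lower and 0.362% higher), with 5 genes at an unadjusted p under 0.05 and a median of -0.20. DESeq2 and limma each called 1 gene, Col9a1, which was at 2.91, 1.73, 6.11, 3.18 and 2.45 CPM in 3mCON and at 1.19, 1.25, 1.01, 1.37 and 2.14 CPM in 3mCON+RM (edgeR: -1.22, adjusted p = 0.0927). The interaction of rapamycin with genotype at 3 months had a median of 0.51 and passed for Col11a2 alone, with the higher value in TSCmKO (log2 difference 1.33, SE 0.36, adjusted p = 0.0287; 2.94% higher, against 1.36%, and none lower, against 2.09%, of 5 genes at an unadjusted p under 0.05). DESeq2 called 2 genes, none lower. Col11a2 lost its call without 3mCON replicates 1 or 3, 3mCON+RM replicates 2 or 5, 3mTSCmKO replicate 2 or 3mTSCmKO+RM replicates 2 or 5 (adjusted p to 0.0735) and with limma (adjusted p = 0.0692). Between 3mTSCmKO+RM and 3mCON+RM, Col9a1 was lower (-1.62, adjusted p = 0.00591; 2.94%, against 4.36%) and Col7a1 higher (1.02, adjusted p = 0.0295; 2.94%, against 5.67%). The Col7a1 call was lost without 3mCON+RM replicates 1, 2 or 3 or 3mTSCmKO+RM replicates 4 or 5 (adjusted p to 0.102) and without the low-count filter (adjusted p = 0.0573), and the Col9a1 call with limma (adjusted p = 0.0561). Of the 8 tendon cell markers, 1 passed in that interaction and 1 between the rapamycin groups, with the higher value in TSCmKO, and their part was not tested.

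The age comparisons carry the difference in insert size. In CON, 1 collagen gene was lower at 9 months (2.94%, against 0.340% of all genes) and none higher (against 0.679%), of 11 at an unadjusted p under 0.05. It was Col11a1 (chr3:114030540-114220718, plus strand), the other collagen XI chain, at 13.8, 9.37, 15.2, 6.55 and 3.802 CPM in 3mCON and 3.01, 1.43, 2.27, 1.201 and 6.25 CPM in 9mCON (log2 fold change -1.76, SE 0.43, adjusted p = 0.0329). That call was lost without 3mCON replicates 1, 2 or 3 or 9mCON replicates 1, 2, 3 or 4, with insert size as a term (adjusted p = 0.0679), without the low-count filter (adjusted p = 0.067) and when both groups were fitted alone (adjusted p = 0.162), while 5 genes passed without 9mCON replicate 5, and DESeq2 called 2 lower and 1 higher. Of the tendon cell markers 1 of 8 was lower in the same comparison (6 at an unadjusted p under 0.05, median -1.32), and their part was not tested. In TSCmKO, 17 genes were lower at 9 months (50%, against 18.3% of all genes) and 2 higher (5.88%, against 19.1%), with a median of -0.85. With insert size as a term 14 genes were lower and none higher, and without any 1 library at least 18 genes passed. Col4a3 lost its call without 3mTSCmKO replicates 2, 3 or 5 or 9mTSCmKO replicates 1, 3, 4 or 5, and with upper-quartile scaling, the replicate block, both groups fitted alone, limma or insert size as a term (adjusted p from 0.0534). Insert size as a term also ended the calls of Col4a4 and Col12a1.

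Among these, Col15a1 had the smallest adjusted p, at 39.9, 41.9, 51.4, 25.1 and 49.01 CPM in 3mTSCmKO against 9.78, 14.4, 16.4, 8.48 and 16.6 CPM in 9mTSCmKO, without overlap (log2 fold change -1.66, SE 0.27, adjusted p = 1.63e-05). Col3a1 (log2 fold change -1.71, SE 0.34, adjusted p = 0.000223) and Col6a1 (log2 fold change -1.31, SE 0.27, adjusted p = 0.000286) followed, again without overlap. Both members that rose, Col24a1 (0.96, adjusted p = 0.000318) and Col7a1 (1.20, adjusted p = 0.00202), lost their calls with insert size as a term (adjusted p = 0.183 and 0.262). The sum of fibroblast markers, given above, was lower in 9mTSCmKO than in 3mTSCmKO without overlap, and 5 of 8 fell. The tendon cell sum likewise lay lower without overlap, with 6 of 8 markers lower and 1 higher. Of the other lists, 3 of 4 adipocyte, 3 of 5 pericyte and smooth muscle, 3 of 5 endothelial, 3 of 6 muscle fiber and 1 of 5 macrophage markers fell, and 1 macrophage and 1 Schwann marker rose. Of all genes, 18.3% fell and 19.1% rose there. The part of these cell types was not tested.

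The synapse-linked genes had low counts. Col13a1 (chr10:61838236-61979108, minus strand) was at 0.05202, 1.47, 0.559, 0.808 and 0.481 CPM in 9mTSCmKO and at 1.64, 1.21, 1.74, 1.103 and 1.16 CPM in 9mTSCmKO+RM, and these groups overlapped (log2 fold change 1.04, SE 0.39, adjusted p = 0.039). Its lowest 9mTSCmKO library held 1 count and its highest 25, so that the value is uncertain. The 9mCON libraries, at 0.382 to 1.39 CPM, and the 9mCON+RM libraries, at 0.344 to 1.37 CPM, overlapped these, and neither genotype (-0.37, adjusted p = 0.502) nor rapamycin in 9mCON (-0.14, adjusted p = 0.876) passed. Col19a1 (chr1:24261890-24587472, minus strand) was at 0.945, 0.981, 0.893, 0.546 and 2.22 CPM in 9mCON and at 0.936, 0.235, 0.391, 0.231 and 0.744 CPM in 9mTSCmKO (log2 fold change -1.12, SE 0.39, adjusted p = 0.0221). With rapamycin it was at 0.5404, 0.874, 1.37, 1.46 and 2.09 CPM in 9mCON+RM and at 0.156, 0.346, 0.272, 0.689 and 0.305 CPM in 9mTSCmKO+RM, with overlap in 1 library of each (log2 fold change -1.81, SE 0.42, adjusted p = 0.00152). Rapamycin in 9mCON gave no call for Col19a1 (0.15, adjusted p = 0.851).

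Col9a1 and Col19a1 are neighbors on chromosome 1, 9205 bases apart at their ends and on opposite strands. Col9a1 had a lower mean in each rapamycin group than in its vehicle group, at 3.28 against 1.39 CPM in 3mCON, 2.11 against 0.474 CPM in 3mTSCmKO, 4.33 against 1.14 CPM in 9mCON and 1.22 against 0.3101 CPM in 9mTSCmKO, and only the first of these missed the threshold. The other 3 calls held without any 1 library, on counts of 2 to 7 in 9mTSCmKO+RM, the lowest group. Col19a1 passed in none of the 4 rapamycin comparisons, with log2 fold changes of -0.55 to 0.15.

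Further members had patterns of their own. Col24a1 was at 33.8, 29.7, 21.5, 23.6 and 17.9 CPM in 9mCON and at 50.4, 26.6, 42.6, 22.5 and 27.95 CPM in 9mTSCmKO, and this difference did not pass by edgeR (0.43, adjusted p = 0.0882). It was called higher in 9mTSCmKO by limma, and by edgeR without 9mCON replicate 1 or 9mTSCmKO replicate 4. In 9mTSCmKO+RM it was at 23.1, 21.4, 26.2, 17.8 and 21.4 CPM (log2 fold change -0.63, SE 0.20, adjusted p = 0.0144). Col7a1 (chr9:108953586-108984875, plus strand), the collagen of the anchoring fibrils that hold skin layers together, was at 89.5, 24.3, 36.9, 19.9 and 32.2 CPM in 9mTSCmKO and at 26.5, 20.3, 24.9, 20.7 and 27.5 CPM in 9mTSCmKO+RM. Replicate 1 of 9mTSCmKO stood far above the rest, and without it the log2 fold change with rapamycin was -0.25 (adjusted p = 0.516) in place of -0.76. Col22a1 was at 2.35, 1.38, 1.47, 1.86 and 1.52 CPM in 9mTSCmKO+RM, and rapamycin gave no call for it (-0.54, adjusted p = 0.17).

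**Figure D4:**
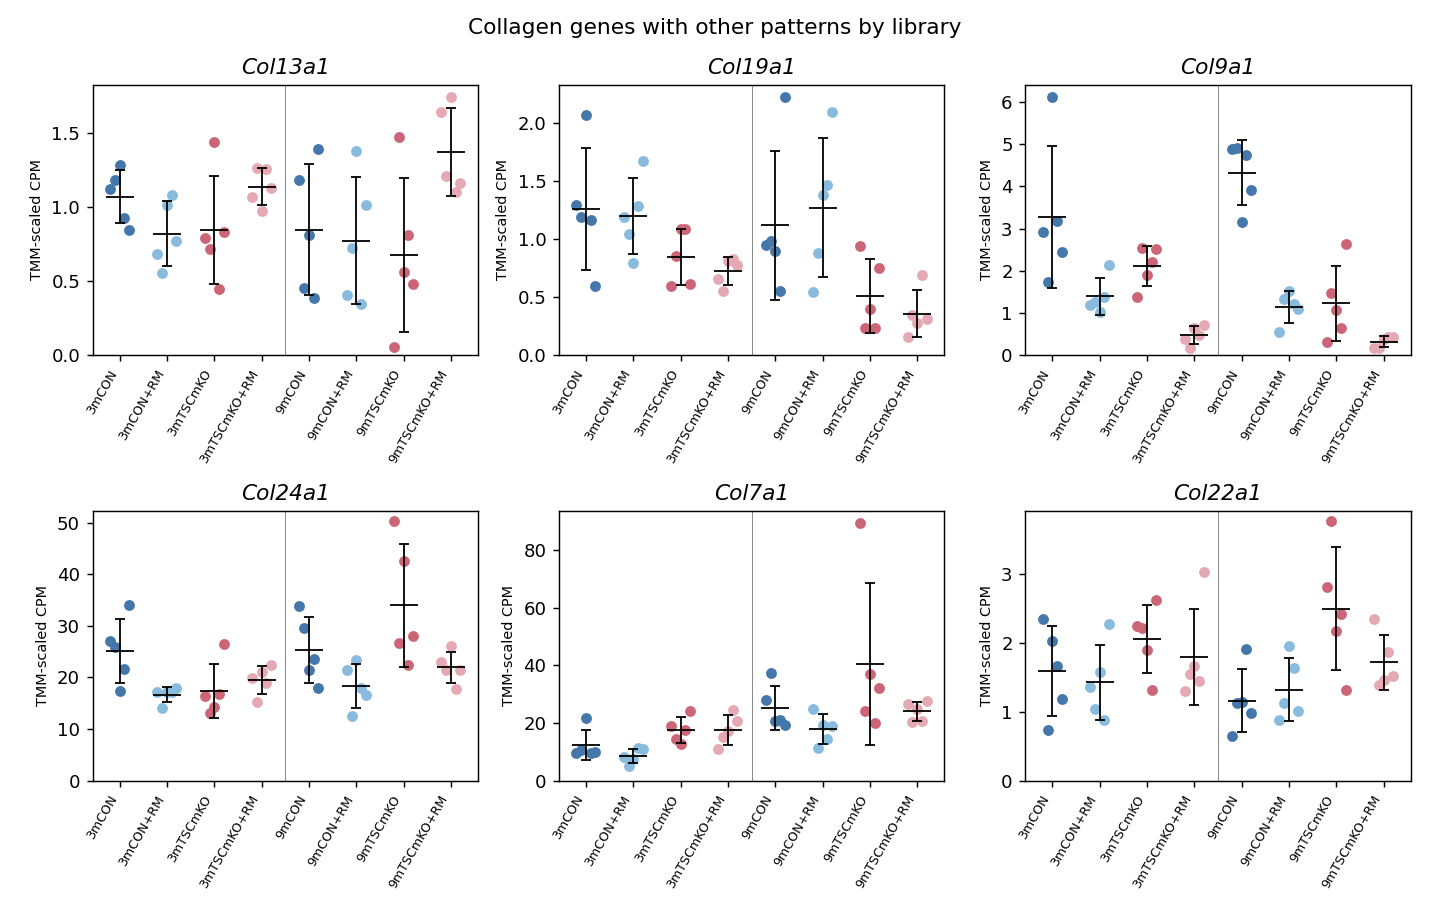
TMM-scaled CPM of the synapse-linked genes Col13a1 and Col19a1 and of Col9a1, Col24a1, Col7a1 and Col22a1, on axes from 0, with the same layout of 5 libraries in each of 8 groups and bars for mean and SD. Col9a1 fell to 0.156 to 0.427 CPM in 9mTSCmKO+RM, and 1 library of 9mTSCmKO held 89.5 CPM of Col7a1.

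Sequence upstream of the start is given for some members. RefSeq promoters (GRCm38.p6) were given for 26 of the 34 genes, and for 13 of them the 100 bases before the start matched a GENCODE M21 start and held no annotated exon. The stretches of Col3a1, Col6a3 and Col11a1, which fell in 9mCON+RM, and of Col9a1, which fell with rapamycin in 3 comparisons, are shown 5′ to 3′ as examples. So are those of Col24a1, Col7a1 and Col13a1, for which edgeR with all libraries gave no call in 9mCON+RM or 9mTSCmKO against 9mCON. Capitals mark the letters CCAAT, a motif bound by the factor NF-Y, on either strand. They also mark the GC box GGGCGG, likewise on either strand, and would mark the TATA box letters TATAAA.
Col3a1 (chr1:45311438-45311537, plus strand): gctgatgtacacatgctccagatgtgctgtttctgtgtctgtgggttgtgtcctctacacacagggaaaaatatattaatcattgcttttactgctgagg
Col6a3 (chr1:90843972-90844071, minus strand): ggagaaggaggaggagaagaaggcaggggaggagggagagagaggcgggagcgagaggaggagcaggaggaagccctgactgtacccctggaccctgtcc
Col11a1 (chr3:114030440-114030539, plus strand): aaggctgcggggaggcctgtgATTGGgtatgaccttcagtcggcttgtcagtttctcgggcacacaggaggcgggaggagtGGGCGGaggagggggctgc
Col9a1 (chr1:24177510-24177609, plus strand): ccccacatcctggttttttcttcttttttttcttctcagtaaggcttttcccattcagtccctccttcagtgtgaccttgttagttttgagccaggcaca
Col24a1 (chr3:145292372-145292471, plus strand): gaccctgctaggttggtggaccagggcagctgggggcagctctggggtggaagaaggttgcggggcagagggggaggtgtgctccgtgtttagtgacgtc
Col7a1 (chr9:108953486-108953585, plus strand): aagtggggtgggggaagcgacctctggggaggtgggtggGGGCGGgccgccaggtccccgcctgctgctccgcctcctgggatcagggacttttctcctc
Col13a1 (chr10:61979109-61979208, minus strand): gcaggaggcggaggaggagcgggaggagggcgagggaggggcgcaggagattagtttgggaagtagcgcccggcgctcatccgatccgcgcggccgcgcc
Of the 13 stretches, 1 held CCAAT, 6 held GGGCGG and 0 held TATAAA. Over all 32851 promoters the same window held them in 18.9%, 24.7% and 5.56%. Unlike the 13 stretches, these promoters were not restricted to matching GENCODE starts or to windows without exons. The CCAAT match was that of Col11a1. GGGCGG was present in Col5a1, Col5a3 and Col11a1, which fell in 9mCON+RM, and in Col7a1, Col8a1 and Col27a1, for which edgeR gave no call there. None of the 3 motifs was in Col3a1, Col6a2, Col6a3 and Col9a1, which fell there, or in Col13a1, Col24a1 and Col28a1, which had no call by edgeR. A match is a description of letters, not of a factor bound there.

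Genes that make, process and bind collagen were counted from lists set by function. Of 17 tested genes of chain modification and folding, 8 fell and 3 rose in 9mTSCmKO against 9mCON (47.1% and 17.6%, against 18.9% and 19.1% of all genes). Serpinh1, the collagen chaperone HSP47, fell (-1.15, adjusted p = 6.99e-07), whereas Plod2, a lysyl hydroxylase, rose (0.98, adjusted p = 1.13e-05). Of 12 genes of propeptide cleavage and cross-linking, 6 fell and 1 rose, among them Bmp1 (-1.18, adjusted p = 4.62e-06) and Adamts2 (-1.24, adjusted p = 1.95e-05), the proteases that trim the C- and N-terminal propeptides. Of 10 genes of collagen breakdown, 5 fell, such as the membrane-bound collagenase Mmp14 (-1.09, adjusted p = 0.000851), and 1 rose, the protease inhibitor Timp1 (2.62, adjusted p = 9.26e-05). Of 9 collagen receptors, 3 fell and 2 rose, with the integrin subunit Itga11 (-1.41, adjusted p = 0.00101) and the receptor kinase Ddr2 (-0.89, adjusted p = 0.00561) among the former. The rises of 3 of 17 folding genes and 2 of 9 receptors were near the share of all genes.

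In 9mCON+RM against 9mCON, 5 of 17 folding genes fell and 2 rose, and 7 of 12 processing genes, 7 of 10 breakdown genes and 3 of 9 receptors fell. In 3mTSCmKO+RM against 3mTSCmKO, 5 folding genes and 2 processing genes rose, while 1 processing and 1 breakdown gene fell. No receptor passed there by edgeR (3 of 9 at an unadjusted p under 0.05). In 9mTSCmKO+RM against 9mTSCmKO, 3 folding genes rose, and 1 folding, 2 processing and 2 breakdown genes and 1 receptor fell. The shares of all genes called are those given for each comparison.

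The tested gene outside each class whose 8 group means (log2 of CPM + 1) ran most like those of the class leader was taken as a description. It was Prokr1 for Col1a2 (Pearson's r = 0.996), Agmo for Col4a1 (r = 0.9898), Col5a1 for Col6a1 (r = 0.998) and Ccdc191 for Col13a1 (r = 0.983), each over 8 means that share their libraries and scaling.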

How the data were processed

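Messenger RNA of 40 EDL muscles was sequenced from 1 end with a directional kit. Per the labels and the study's methods, the authors trimmed reads with Cutadapt 1.9.1, assigned them with kallisto 0.43.1 to Ensembl release 92 transcripts of GRCm38, split a read over the n transcripts it matched and deposited estimated counts and TPM summed per gene. Reads shared by related chains could thus be divided among them. The deposited estimated counts were whole numbers and were used as they stood.

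Genes at 1 CPM or more in 5 or more libraries (13543) entered edgeR 4.0.16 (R 4.3.3; TMM scaling, robust quasi-likelihood fit of 8 group means, two-sided), with Benjamini-Hochberg adjustment over all of them and a threshold of 0.05. Log2 fold changes and SE come from that fit, and CPM values are TMM-scaled. TPM served to compare genes, for the sums and class shares by group, and in the limma alternative. There were 10 pairwise comparisons and 3 interactions. Named were the 4 members with the highest mean TPM of the fibrillar and basement membrane classes, the synapse-linked members, Col6a1, Col6a2 and Col6a3, the 3 smallest adjusted p of each comparison, and for the other lists 2 genes each in the 9-month genotype comparison. Members, classes and lists were chosen with earlier results of these data known. Gene positions come from the reference annotation of GRCm38 (GENCODE M21). Alternatives were RLE and upper-quartile scaling, no low-count filter, a fit of the compared groups alone, a replicate block, insert size as a term (39 libraries, since 1 label gives none), limma 3.58.1 on log2(TPM + 1), DESeq2 1.42.0 and leaving out each library in turn. The fits were tested on simulated data with known changes.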

Additional observations from a re-analysis of the deposited data

Results flagged for a closer look

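Among the named collagen genes, 22 of 184 sets of 5 replicates held a library that stood apart from the other 4 by Dixon's test (gap over range above 0.71). Chance alone gives about 1 in 20, and the genes of a library are not independent of each other. Above the rest, 3mCON replicate 1 had Col3a1 at 423 CPM (next 255 CPM), Col6a1 at 124 CPM (next 81.5 CPM) and Col6a2 at 103 CPM (next 62.3 CPM). Above the rest, 3mCON replicate 3 had Col7a1 at 21.6 CPM (next 10.7 CPM). Below the rest, 3mCON+RM replicate 2 had Col14a1 at 3.39 CPM (next 8.95 CPM), Col24a1 at 13.99 CPM (next 17.1 CPM), Col3a1 at 137 CPM (next 267 CPM), Col5a2 at 23.6 CPM (next 42.3 CPM) and Col5a3 at 16.6 CPM (next 33.999 CPM). Above the rest, 3mTSCmKO replicate 5 had Col24a1 at 26.4 CPM (next 16.9 CPM), Col4a1 at 279 CPM (next 181 CPM) and Col5a3 at 53.8 CPM (next 33.7 CPM). Below the rest, 3mTSCmKO+RM replicate 1 had Col3a1 at 188 CPM (next 378 CPM). Above the rest, 9mCON replicate 5 had Col14a1 at 12.2 CPM (next 6.33 CPM), Col19a1 at 2.22 CPM (next 0.981 CPM), Col3a1 at 302 CPM (next 177 CPM) and Col6a3 at 41.4 CPM (next 18.8 CPM). Above the rest, 9mCON+RM replicate 3 had Col4a1 at 163 CPM (next 93.8 CPM) and Col4a2 at 131 CPM (next 72.6 CPM). Below the rest, 9mCON+RM replicate 5 had Col14a1 at 0.26998 CPM (next 1.23 CPM). Above the rest, 9mTSCmKO replicate 1 had Col1a1 at 217 CPM (next 58.8 CPM) and Col7a1 at 89.5 CPM (next 36.9 CPM).

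Effects that differed between groups by a tested interaction were found for 6 values. The genotype effect differed between ages for Col24a1 (0.95 on the log2 scale), Col15a1 (-1.23) and Col4a4 (-1.34). The rapamycin effect differed between genotypes for Col6a2 (1.51) and Col15a1 (1.58) at 9 months and for Col11a2 (1.33) at 3 months.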

How the results depend on the processing

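The number of collagen genes called, with its range when 1 library was left out, was 20 (12 to 26) for 9mTSCmKO against 9mCON, 2 (1 to 3) for 3mTSCmKO against 3mCON, 3 (0 to 4) for genotype by age, 6 (2 to 8) for 9mTSCmKO+RM against 9mTSCmKO, 5 (1 to 6) for 3mTSCmKO+RM against 3mTSCmKO, 19 (13 to 21) for 9mCON+RM against 9mCON, 0 (0 to 0) for 3mCON+RM against 3mCON, 2 (1 to 7) for rapamycin by genotype at 9 months, 1 (0 to 2) for rapamycin by genotype at 3 months, 6 (4 to 6) for 9mTSCmKO+RM against 9mCON+RM, 2 (1 to 2) for 3mTSCmKO+RM against 3mCON+RM, 1 (0 to 5) for 9mCON against 3mCON and 19 (18 to 24) for 9mTSCmKO against 3mTSCmKO. Without the low-count filter, the counts that moved by over 1.5 times were 1 for 3mTSCmKO against 3mCON, 1 for genotype by age, 2 for 3mTSCmKO+RM against 3mTSCmKO, 1 for rapamycin by genotype at 9 months, 1 for 3mTSCmKO+RM against 3mCON+RM and 0 for 9mCON against 3mCON. With only the compared groups fitted, the counts that moved by over 1.5 times were 0 for genotype by age, 10 for 3mTSCmKO+RM against 3mTSCmKO, 0 for rapamycin by genotype at 9 months, 2 for rapamycin by genotype at 3 months, 4 for 3mTSCmKO+RM against 3mCON+RM and 0 for 9mCON against 3mCON. With insert size as a term, the counts that moved by over 1.5 times were 1 for 3mTSCmKO against 3mCON, 1 for genotype by age, 1 for 3mTSCmKO+RM against 3mTSCmKO, 1 for rapamycin by genotype at 9 months and 0 for 9mCON against 3mCON. With limma, the counts that moved by over 1.5 times were 1 for genotype by age, 1 for 3mCON+RM against 3mCON, 4 for rapamycin by genotype at 9 months, 0 for rapamycin by genotype at 3 months, 2 for 9mTSCmKO+RM against 9mCON+RM and 1 for 3mTSCmKO+RM against 3mCON+RM. With DESeq2, the counts that moved by over 1.5 times were 1 for 3mCON+RM against 3mCON, 7 for rapamycin by genotype at 9 months, 2 for rapamycin by genotype at 3 months and 3 for 9mCON against 3mCON. The cause was not tested. RLE and upper-quartile scaling moved no such count by over 1.5 times. Of 624 values of called, named members under the 8 settings, 561 kept their call, 63 lost it and 0 changed sign, and 32 of 78 calls were lost without at least 1 library.

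Replicate numbers are shared between groups, but deviations of same-numbered libraries correlated from -0.459 to 0.561, and in none of 10 comparisons were all 5 pairs above 0.1. At most 3 of 5 pairs were, in 9mTSCmKO+RM against 9mCON+RM and in 3mTSCmKO+RM against 3mCON+RM. The samples were therefore treated as sharing only a number. With a replicate block the counts were 3 for 3mTSCmKO against 3mCON, 5 for 9mTSCmKO+RM against 9mTSCmKO and 21 for 9mTSCmKO against 3mTSCmKO, and the other comparisons had the same counts as without the block. Members near 1 CPM (Col13a1, Col19a1, Col2a1, Col6a6, Col12a1) rest on few counts, so that for them only large differences were detectable.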
